A study of Mus musculus with 12 samples.

Results

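The chromatin of 9 genes of the Hedgehog pathway was compared between young and old mesenchymal stem cells (MSCs), the stromal cells that can form bone, cartilage and fat. The genes were the ligands Shh, Ihh and Dhh, the receptor Ptch1, the decoy receptor Hhip, the transducer Smo and the transcription factors Gli1, Gli2 and Gli3, out of 21829 protein-coding genes. A region of a deposited table belonged to a gene when it overlapped the gene body or 50 kb on either side. This rule took 34 of the 31617 regions of H3K27ac and 25 of the 28047 regions of H3K27me3, and no region belonged to more than 1 of the 9 genes.

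H3K27ac, the acetylated form of lysine 27 on histone H3, is found at promoters and enhancers in use, and H3K27me3, the trimethylated form, is laid down by Polycomb repressors. Both were measured by CUT&RUN, in which an antibody brings a nuclease to the mark in permeabilised cells and the released DNA is sequenced. The cells came from young mice of 3 to 5 months or old mice of 18 to 22 months, and all of them, in both age groups, were cultured at 2% oxygen. Each of the 4 groups (young and old, by mark) held 3 libraries, and the 300K cells of a sample were shared between the tubes for the antibodies. The labels gave no strain, sex, genotype or number of animals per sample, and did not say whether replicates came from separate animals, so the p-values measure the spread between these samples, which may in part be technical. They gave no batch or date either, so no comparison within batches could be made.

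Hedgehog ligands are secreted proteins that bind Ptch1, which otherwise holds Smo in check. Freed Smo lets Gli2 and Gli3 act as activators in place of repressors, while Gli1 and Ptch1 are themselves classical targets of the pathway and Hhip binds ligands at the cell surface. In the skeleton Ihh, made by maturing cartilage cells, is best known for the control of growth plate cartilage and of bone formation, and Gli1 marks stromal progenitors of bone.

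The H3K27ac libraries held 2750953 to 5541429 reads and the H3K27me3 libraries 3622108 to 9947515, and old replicate 2 was the shallowest of both marks. The regions held 33.4 to 41.4% of the H3K27ac reads. For H3K27me3 this share was 62.3 to 66.6% in the young libraries and 53.8 to 60.8% in the old ones, with no overlap, and its part in the results below was not tested. The deposited value of a region stood for its reads relative to the reads of the library, without division by the length of the region. Signals below were further scaled between the libraries of a mark by the median of ratios. Levels of different regions are compared only per kb, except in the balance of the marks, which uses sums. Of the marker genes of MSCs, 10 of 10 carried H3K27ac at a start site (Nt5e together with H3K27me3), and the sum of this signal was 1348 to 1487 in young and 1371 to 1465 in old libraries. Of 6 blood genes, 2 (Csf1r and Cd68) did, with sums of 107 to 115 and 91.9 to 108, while the defining genes Ptprc and Spi1 had neither mark there. Of 3 endothelial genes only Pecam1 did, with sums of 6.47 to 8.14 and 7.10 to 10.9. The 3 cartilage genes Sox9, Acan and Col2a1 all did (Acan and Col2a1 together with H3K27me3), with sums of 95.7 to 115 in young and 122 to 139 in old libraries that did not overlap, and the part of this difference in the results below was not tested. In such bulk samples, fewer cells with a mark and less of the mark in each cell cannot be told apart.

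Across the annotated start sites of the 9 genes, H3K27ac alone was found at Gli3, H3K27me3 alone at Shh, Ihh, Dhh and Hhip, and both at Ptch1, Smo, Gli1 and Gli2, where a region counted when it lay within 1 kb of any start site of the gene. No gene had neither mark. Of all 21829 genes, 44.2% had H3K27ac alone, 24.7% H3K27me3 alone, 9.92% both and 21.2% neither. All 3 ligands thus stood under H3K27me3 at their start and Gli3 under H3K27ac. Of the genes with both, only Gli1 and Gli2 had start sites inside regions of both marks, since no start of Ptch1 or Smo lay in both.

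The promoter sequences show that the class of a gene did not follow the CpG content of its promoter in a simple order. The set of RefSeq promoters used here (GRCm38.p6) held 7 of the 9 genes. Shh and Gli1 were not in this set and are named only. The 250 bases before the RefSeq start are printed 5′ to 3′ on the strand of the gene, with each CpG in capitals, for a gene of each class and for the promoter with the fewest CpGs. The window of Gli3 (H3K27ac alone) is chr13:15463473-15463722 on the plus strand, which lies inside the gene past the first 2 of its 3 GENCODE starts. The window of Hhip (H3K27me3 alone) is chr8:80058009-80058258, that of Gli2 (both marks) is chr1:119053620-119053869, and that of Dhh (H3K27me3 alone) is chr15:98898541-98898790, all on the minus strand.
Gli3: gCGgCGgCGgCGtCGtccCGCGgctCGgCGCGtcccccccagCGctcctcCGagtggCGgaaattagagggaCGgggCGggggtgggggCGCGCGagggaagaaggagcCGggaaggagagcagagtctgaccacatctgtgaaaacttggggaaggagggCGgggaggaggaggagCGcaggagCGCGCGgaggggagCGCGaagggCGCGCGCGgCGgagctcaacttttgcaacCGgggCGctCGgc
Hhip: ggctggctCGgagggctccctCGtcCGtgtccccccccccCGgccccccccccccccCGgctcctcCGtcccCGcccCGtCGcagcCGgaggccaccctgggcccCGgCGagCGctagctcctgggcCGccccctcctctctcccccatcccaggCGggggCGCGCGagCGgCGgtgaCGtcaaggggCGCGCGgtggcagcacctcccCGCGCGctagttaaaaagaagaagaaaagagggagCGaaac
Gli2: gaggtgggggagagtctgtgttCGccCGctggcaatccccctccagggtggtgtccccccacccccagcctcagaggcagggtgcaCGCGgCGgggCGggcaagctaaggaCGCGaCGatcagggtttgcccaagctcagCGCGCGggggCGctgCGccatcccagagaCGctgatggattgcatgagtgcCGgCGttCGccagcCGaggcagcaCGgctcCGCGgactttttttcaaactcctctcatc
Dhh: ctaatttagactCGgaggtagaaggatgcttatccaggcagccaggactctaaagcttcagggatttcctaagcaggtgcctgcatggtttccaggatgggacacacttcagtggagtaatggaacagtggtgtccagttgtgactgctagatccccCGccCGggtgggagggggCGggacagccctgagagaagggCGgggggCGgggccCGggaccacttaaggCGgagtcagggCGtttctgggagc

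The 4 windows held 34, 28, 22 and 9 CpGs, in the order printed. Counted over the whole promoter of 300 bases (250 before and 50 after the start), Ptch1 held 47 CpGs, Gli3 39, Ihh and Hhip 30 each, Gli2 28, Smo 17 and Dhh 12. The median of all 32851 promoters was 7, with quartiles of 3 and 20, so 5 of the 7 lay above the upper quartile. Ihh and Hhip, with H3K27me3 alone, had as many CpGs as each other and slightly more than Gli2 with both marks. The class counts any start site of a gene, while the CpGs are those of a single promoter. At Ptch1 and Smo, classed with both marks, the 250 bases before the RefSeq start lay in H3K27ac regions only. The Gli binding motif GACCACCCA, searched on both strands as an exact match, was in none of the 7 promoters and in 0.253% of all promoters. With so rare a motif, its absence from 7 promoters cannot show whether Gli proteins bind there.

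**Figure D1:**
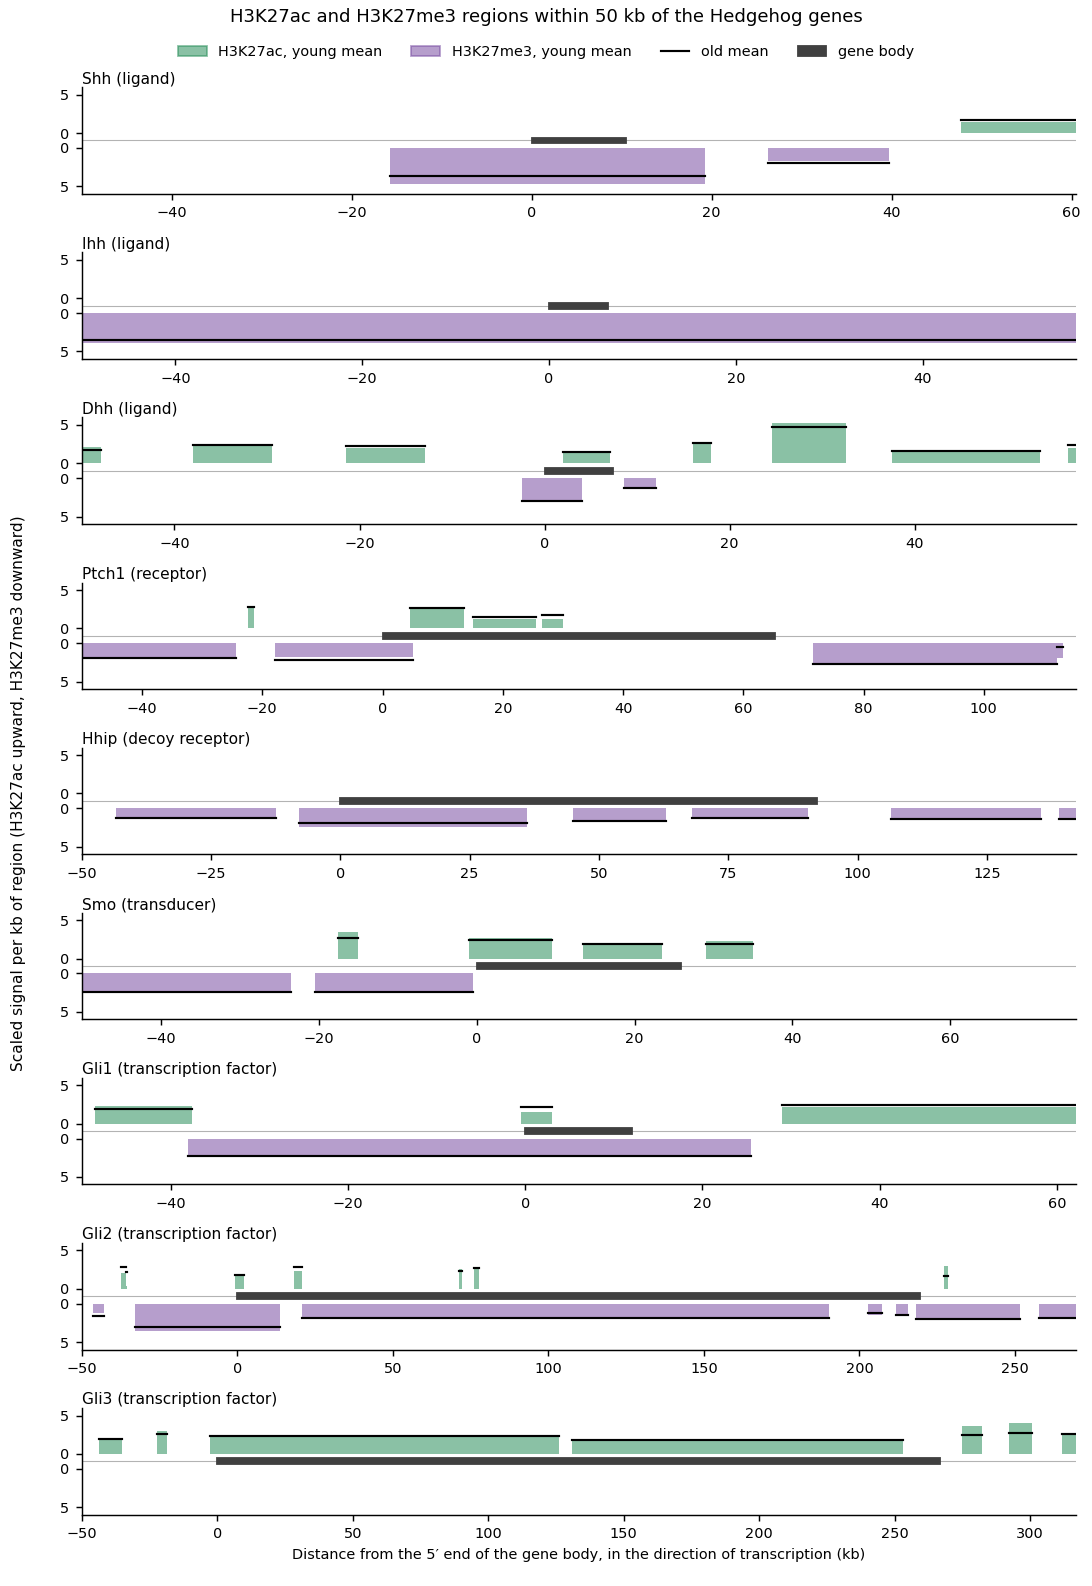
Regions of H3K27ac (upward, green) and H3K27me3 (downward, purple) around each gene, by distance in kb from the 5′ end of the gene body (dark bar) in the direction of transcription. The height of a block is the young mean and the black line the old mean of the scaled signal per kb of region. Gli3 has only green blocks, Ihh and Hhip only purple ones, and the small green blocks at the starts of Gli1 and Gli2 face purple domains.

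No region of the 9 genes passed the test between old and young cells in either mark. Regions were tested with limma across the whole table of each mark, with p-values adjusted by Benjamini-Hochberg, and fold changes are old minus young of log2(signal + 0.5), so that changes in regions of low signal come out too small. For H3K27ac, 0 of 34 regions were called at an adjusted p under 0.05, where 0.0822% of all regions were. At an unadjusted p under 0.05 there were 2 of 34 (5.88%), against 9.59% of all regions. For H3K27me3, 0 of 25 regions were called, where 0.488% of all were, and 4 (16.0%) had an unadjusted p under 0.05, against 13.9% of all. Of these 4, 1 in the flank of Ptch1 entered the table only through the young group, so its p-value is not read as a test. With edgeR on the recovered reads, 0 regions of either mark were called, with 2 and 4 at an unadjusted p under 0.05. With DESeq2 0 were called, with 1 and 4 at an unadjusted p under 0.05, though DESeq2 gave no adjusted p to 30 of the H3K27ac and 10 of the H3K27me3 regions.

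The middle of the distribution of the 9 genes lay close to that of each whole table. The median log2 fold change was 0.003 over the 34 H3K27ac regions and -0.003 over all regions, and -0.011 over the 25 H3K27me3 regions against -0.008 over all. In the signal as deposited, without scaling, the median of all regions moved to -0.12 for H3K27ac and -0.13 for H3K27me3, and that of the 9 genes to -0.11 and -0.13. Of the H3K27me3 regions of the 9 genes, 60.0% had a lower mean log2 signal in old cells, against 51.4% of all regions. These shares were 88.0% and 70.9% in the signal as deposited.

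Separation of the 3 old from the 3 young libraries was seen at 12 regions in all. For H3K27ac all old libraries lay below all young ones at 4 of 34 regions (11.8%), against 7.42% of all regions, and above them at 4 (11.8%), against 7.09% of all. One of the latter, at Gli2, was listed for old cells only and held at most 2 reads in a library, so its separation follows from how it entered the table. For H3K27me3 all old libraries lay below at 4 of 25 regions (16.0%), against 10.6% of all, and above at 0, against 8.56% of all. Likewise 1 of these 4, in the flank of Ptch1, was listed for young cells only. Regions of the 9 genes were longer, with medians of 8.25 kb (H3K27ac) and 27.5 kb (H3K27me3), against 4 and 10.5 kb over all. Among those of 20 kb or more (a cut chosen after seeing the data), all old libraries lay above at 3 of 5 H3K27ac regions and below at 0. The shares of all such H3K27ac regions were 12.7% and 4.59%. The 3 regions lay in the flanks of Shh, Dhh and Gli1 and held start sites of neighbouring genes, not of the 9 genes. For H3K27me3 all old libraries lay below at 3 of 16 (18.8%) and above at 0, against 12.4% and 9.90%. The part of length was not tested.

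**Figure D2:**
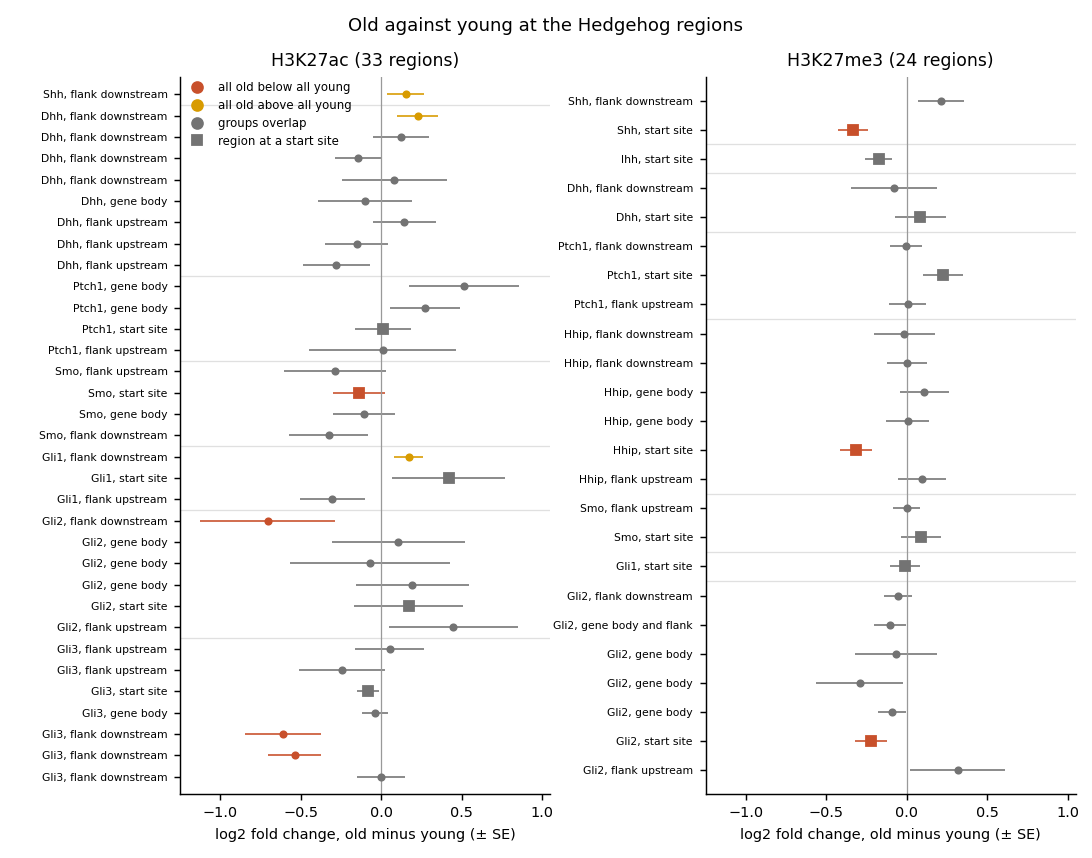
Log2 fold change, old minus young, with its standard error for the regions of the 9 genes (left H3K27ac, right H3K27me3), listed by gene and by position on the chromosome. Squares are regions at a start site, and colours mark regions in which the 3 old libraries lay wholly below or above the 3 young ones. A region of Gli2 and a region of Ptch1 with at most 3 reads in each library of an age group are not drawn. The start-site regions of Shh, Hhip and Gli2 are coloured as lower in H3K27me3.

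Among the ligands, Shh, the ligand that patterns limb and neural tube in the embryo, had the densest H3K27me3 of the 9 genes at its start and the smallest p-value between ages in this mark. Its domain at chr5:28448001-28483000 (35.0 kb) covered the whole gene, with its exons, introns and untranslated regions, and no start site of another protein-coding gene. The scaled signal was 147, 172 and 169 in young and 137, 135 and 116 in old libraries. All old libraries lay below all young ones, with means of 163 ± 13.6 and 129 ± 11.6 (SD, n = 3 each). The log2 fold change was -0.33 (SE 0.096) with a limma adjusted p of 0.108 (unadjusted p = 0.0023), so it did not pass the threshold. In the signal as deposited it was -0.46 with an adjusted p of 0.0379 and passed. A second H3K27me3 region, 26.3 kb from the start in the downstream flank, had overlapping groups with means of 22.5 ± 2.41 and 26.1 ± 1.24 (log2 fold change 0.21, limma adjusted p = 0.523).

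The H3K27ac region counted for Shh held a start site of its neighbour Rbm33 and reached the window of Shh from 47.8 kb downstream of its start. Its signal was 57.6, 56.6 and 54.4 in young and 62.8, 64.6 and 60.0 in old libraries. All old values were higher, by 0.15 on the log2 scale, with a limma adjusted p of 0.718.

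Ihh lay inside a single H3K27me3 domain of 228 kb at chr1:74824001-75051500, which filled its whole window and held start sites of Cdk5r2, Cfap65, Cryba2, Fev and Nhej1. H3K27ac had no region within 50 kb of Ihh. The H3K27me3 signal was 821, 913 and 948 in young and 852, 844 and 689 in old libraries. The groups overlapped, and the log2 fold change of -0.17 (SE 0.085) had a limma adjusted p of 0.371. Without old replicate 3 it was -0.070.

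Dhh, the ligand known from testis and nerve sheath, differed from both other ligands in its surroundings. Its start lay in a short H3K27me3 region of 6.5 kb at chr15:98894501-98901000, which also held a start of Rhebl1, while 8 H3K27ac regions stood in its window at the starts of Kmt2d, Prkag1, Rhebl1, Lmbr1l, Tuba1b, Tuba1a and Gm49450. The nearest of these began 2.01 kb inside the gene body, covered 67.7% of the gene and overlapped the H3K27me3 region by 2.0 kb. The H3K27me3 signal at the start was 17.3, 20.99 and 16.6 in young and 17.4, 20.35 and 20.48 in old libraries. The groups overlapped, with a log2 fold change of 0.09 (SE 0.157, limma adjusted p = 0.858). The farthest H3K27ac region, over Kmt2d and Prkag1, had 44.0, 45.1 and 41.7 in young and 51.3, 51.4 and 50.5 in old libraries. All old values were higher there, with a log2 fold change of 0.23 that did not pass (limma adjusted p = 0.586), and only 3.86% of that region lay in the window.

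Ptch1, the receptor and a target gene of the pathway, carried the marks at different start sites. The 4 starts from 63564326 to 63565735 on chromosome 13 lay in an H3K27ac region at chr13:63560001-63569000, over exons and untranslated sequence, and the outermost start at 63573598 lay in an H3K27me3 region at chr13:63568501-63591500. The regions overlapped by 0.5 kb. The H3K27ac signal was 27.2, 21.1 and 23.8 in young and 28.4, 22.6 and 21.7 in old libraries, which overlapped (log2 fold change 0.009, SE 0.175, limma adjusted p = 0.993). The H3K27me3 signal was 41.2, 45.4 and 38.5 in young and 43.2, 57.7 and 46.6 in old libraries. These groups overlapped as well, with a log2 fold change of 0.23 (SE 0.126) and a limma adjusted p of 0.435.

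The further H3K27ac regions in the Ptch1 gene body had old means of 6.25 ± 1.40 against 4.28 ± 1.37 and of 16.0 ± 2.94 against 13.1 ± 1.77 in young cells, with overlapping groups and limma adjusted p-values of 0.676 and 0.740. A region of H3K27me3 of 1.0 kb inside Fancc, at chr13:63460501-63461500, was listed by the authors as present in young cells only. It directly adjoined a domain of 40.5 kb at chr13:63461501-63502000 that was listed for both ages. That domain had overlapping groups and a log2 fold change of -0.005 (limma adjusted p = 0.989). The region of 1.0 kb held 26 reads over the 3 young and 3 over the 3 old libraries. Since it entered the table only through the young group, in which it was high, this difference is a description and is not read as a test. The call of 1 region that appeared without old replicate 2 (limma adjusted p = 0.0344) was this region.

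Hhip, which binds Hedgehog ligands and so limits their range, carried only H3K27me3. The 6 regions together covered 76.8% of its window, and H3K27ac had none. The domain at the start, chr8:80022001-80066000 (44.0 kb), covered 39.1% of the gene from its first exon on. Its signal was 103, 103 and 109 in young and 93.7, 75.2 and 85.1 in old libraries. All old libraries were lower, with means of 105 ± 3.44 and 84.7 ± 9.28 (SD, n = 3 each) and a log2 fold change of -0.32 (SE 0.10) whose limma adjusted p of 0.139 missed the threshold. In the signal as deposited the log2 fold change was -0.44 with an adjusted p of 0.0391, which passed. The other 5 regions had overlapping groups and log2 fold changes of -0.015 to 0.11.

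Smo, the membrane protein that carries the signal inward, had its start 0.694 kb past the end of an H3K27me3 region and inside an H3K27ac region. The H3K27ac region at chr6:29734501-29745000 covered 36.7% of the gene. Its signal was 27.8, 27.4 and 30.0 in young and 23.3, 27.3 and 26.7 in old libraries. All old values lay below all young ones, by a small margin, and the log2 fold change of -0.14 (SE 0.162) had a limma adjusted p of 0.838. The other H3K27ac regions in the window, with overlapping groups, had log2 fold changes of -0.29 upstream, -0.11 in the gene body and -0.33 at the neighbour Ahcyl2, with limma adjusted p-values of 0.716 to 0.907. The H3K27me3 region at chr6:29715001-29735000, upstream of the start, had 45.7, 44.6 and 44.2 in young and 41.7, 57.7 and 45.4 in old libraries. These groups overlapped (log2 fold change 0.09, limma adjusted p = 0.803). A longer H3K27me3 region of 100.5 kb, at the start of Tspan33, reached the window from upstream and had overlapping groups as well (log2 fold change -0.001, limma adjusted p = 0.998).

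Gli1, the activator that is itself a target and a readout of the pathway, had both marks at its start. Its H3K27ac region of 3.5 kb at chr10:127339001-127342500 lay wholly inside an H3K27me3 domain of 63.5 kb at chr10:127316501-127380000, which covered the whole gene and starts of Arhgap9, Inhbc and Inhbe. The H3K27ac signal was 3.56, 8.57 and 4.56 in young and 6.31, 12.5 and 4.54 in old libraries, from 9 to 16 reads each. The groups overlapped, and the log2 fold change of 0.42 (SE 0.352, limma adjusted p = 0.754) ranged from 0.038 to 0.75 when single libraries were left out. The H3K27me3 signal was 134, 139 and 156 in young and 145, 153 and 129 in old libraries, with a log2 fold change of -0.011 (SE 0.095, limma adjusted p = 0.973). These groups overlapped too. The larger H3K27ac region in the window belonged to the starts of Dctn2, Ddit3, Mars and Mbd6, 26.96 kb from that of Gli1. It had 109, 105 and 101 in young and 116, 118 and 121 in old libraries, so that all old values were higher (log2 fold change 0.17, limma adjusted p = 0.556).

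Gli2, the main activator downstream of Smo, was covered by H3K27me3 over most of its length. The 7 H3K27me3 regions covered 85.6% of its window, the longest of them (170 kb) 77.2% of the gene. The domain at the start, chr1:119040001-119086500, had a signal of 159, 174 and 160.4 in young and 147, 155 and 121 in old libraries. All old libraries were lower, with means of 164 ± 8.28 and 141 ± 17.8 (SD, n = 3 each), a log2 fold change of -0.22 (SE 0.098) and a limma adjusted p of 0.302. Without old replicate 3 it was -0.11. An H3K27ac region of 3.0 kb at the start, chr1:119051501-119054500, lay wholly inside this domain. It had 5.498, 3.43 and 5.86 in young and 6.31, 4.67 and 5.55 in old libraries. The groups overlapped, with a log2 fold change of 0.17 (SE 0.339, limma adjusted p = 0.918). The 7 H3K27ac regions of Gli2 were short, 11.5 kb in all. Of them 1, listed by the authors as present in old cells only, had at most 2 reads in each of the 6 libraries, which is under the floor of 3 reads. It directly adjoined a region of 1.5 kb that was listed for both ages and had overlapping groups. Another of the 7, 227 kb from the start past the 3′ end of the gene, had 3.23, 4.00 and 5.86 in young and 2.37, 2.34 and 2.52 in old libraries. All old values were lower, from 6, 3 and 5 reads, at or near the floor of 3 reads. The log2 fold change of -0.71 had a limma adjusted p of 0.625.

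Gli3, which is processed to the main repressor of the pathway, carried long H3K27ac domains and no H3K27me3 within 50 kb. The domain at the start, chr13:15460501-15589500 (129 kb), covered 47.3% of the gene and a second one of 123 kb another 45.9%. At the start the signal was 308, 314 and 306 in young and 284, 321 and 275 in old libraries. The groups overlapped, and the log2 fold change of -0.082 (SE 0.066) had a limma adjusted p of 0.741. The second domain had means of 222 ± 17.2 and 216 ± 21.3 (limma adjusted p = 0.919).

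The smallest p-values of the 34 H3K27ac regions lay in a pair of regions past the 3′ end of Gli3 that overlapped no protein-coding gene. At chr13:15755501-15764000, 292 kb from the start of Gli3, the signal was 30.4, 33.1 and 39.7 in young and 20.52, 23.4 and 26.7 in old libraries. All old libraries were lower, with means of 34.4 ± 4.80 and 23.5 ± 3.11 (SD, n = 3 each), a log2 fold change of -0.54 (SE 0.164) and a limma adjusted p of 0.217 (unadjusted p = 0.00232). At chr13:15738001-15745500, 274 kb from the start, it was 32.0, 26.3 and 23.8 in young and 23.7, 10.1 and 22.7 in old libraries. All old libraries were lower, though old replicate 1 lay only just below the lowest young library and replicate 2, the shallowest, far below. The log2 fold change there was -0.61 (SE 0.235, limma adjusted p = 0.393), and -0.22 without old replicate 2 (adjusted p = 0.824). The next region, 311 kb from the start, had means of 37.1 ± 5.30 and 37.0 ± 3.77, which did not separate the ages.

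**Figure D3:**
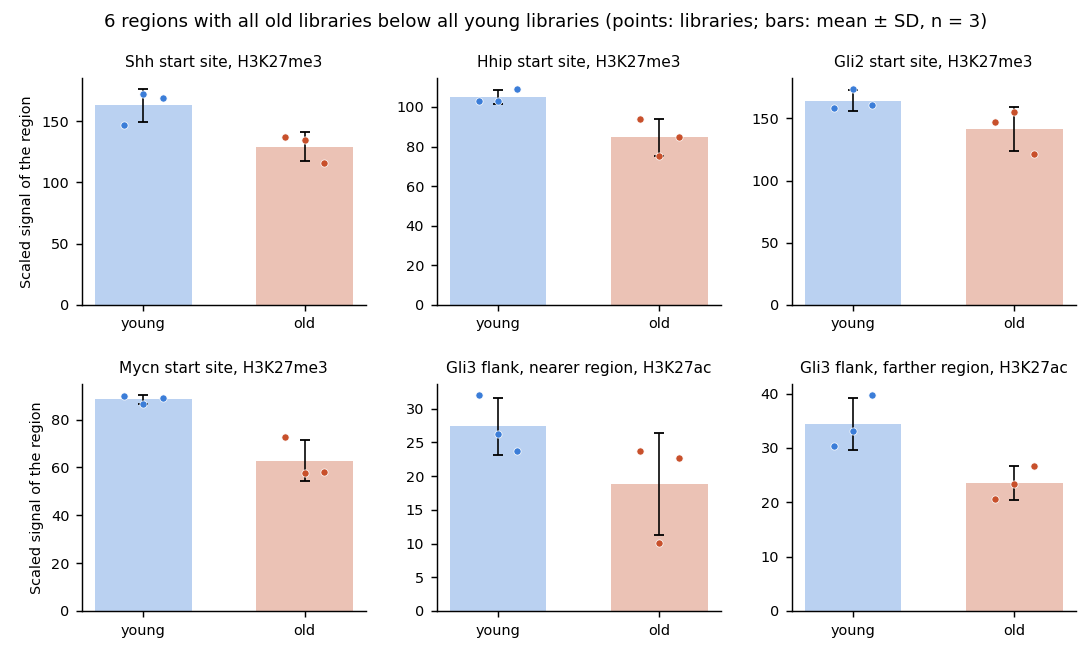
Scaled signal of 6 regions in which each old library had less signal than each young one, 5 of the 9 Hedgehog genes' regions and the start-site region of Mycn. Points are libraries and bars the mean ± SD. Of the 6, only the Mycn region passed the test across all regions. Other regions with separated ages, both lower and higher in old cells, are not drawn.

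Set in order of H3K27me3 signal per kb of the start-site region in young cells, Shh (4.66) came before Ihh (3.93), Gli2 (3.53), Dhh (2.82), Hhip (2.39), Gli1 (2.25), Smo (2.24) and Ptch1 (1.81). The young libraries of Ihh and Gli2 overlapped, as did those of Hhip with Gli1 and of Gli1 with Smo, while the other neighbours were apart. The median of 6249 regions at start sites was 1.99, and 98.7% of them lay below Shh. In old cells the means were 3.69 for Shh, 3.49 for Ihh and 3.04 for Gli2, and the libraries of these neighbours overlapped. For H3K27ac per kb, Smo (2.71), Ptch1 (2.67) and Gli3 (2.40) overlapped as neighbours in young cells and all their libraries lay above those of Gli2 (1.64). The young libraries of Gli1 (mean 1.59) ran from 1.02 to 2.45 and overlapped those of Gli2, Gli3 and Ptch1. The median of 9869 start-site regions was 2.27, and 9.18% and 6.88% of them lay below Gli2 and Gli1. Gli1 and Gli2 were the genes whose H3K27ac region lay inside an H3K27me3 domain, and these regions were also the shortest, at 3.5 and 3.0 kb.

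**Figure D4:**
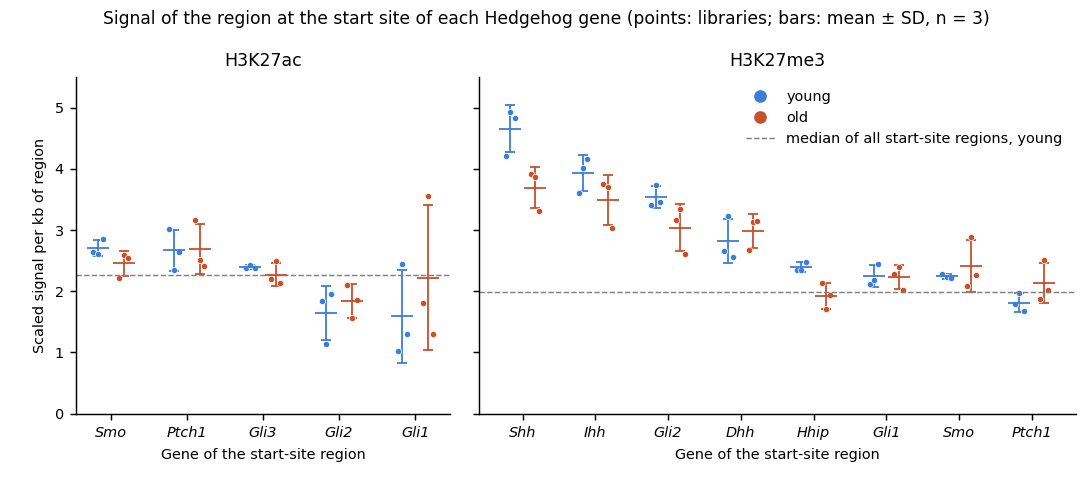
Scaled signal per kb of the start-site region of each gene, with genes ordered by the young mean (left H3K27ac, right H3K27me3). Points are libraries, bars the mean ± SD of 3 libraries, and the dashed line the young median of all start-site regions. Shh, Ihh and Gli2 stand highest in H3K27me3, and the young and old points do not overlap at Shh, Gli2 and Hhip in H3K27me3 and at Smo in H3K27ac.

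Summed over all regions of a gene, the locus signal was compared by a two-sided exact permutation test, which with 3 against 3 libraries cannot give a p below 0.10. H3K27ac sums of old cells lay above those of young cells at 3 of 7 genes, by 0.15 at Shh, 0.16 at Ptch1 and 0.12 at Gli1 on the log2 scale, each with the smallest possible exact p of 0.10. The same was seen at 11.6% of the 17248 protein-coding genes with an H3K27ac region in such a window. The sum of Smo lay below, by -0.19 on the log2 scale (exact p = 0.10), as at 5.00% of genes. At Smo the sums were 68.2, 80.0 and 64.5 in young and 62.4, 59.2 and 64.1 in old libraries. At Ptch1 they were 44.6, 41.7 and 45.9 in young and 48.9, 51.4 and 47.4 in old libraries. For H3K27me3 only Shh was apart, with 169, 198 and 189.7 in young and 162, 162 and 142 in old libraries, a log2 difference of -0.25 (exact p = 0.10). Sums below all young ones were found at 13.0% of the 17445 genes with H3K27me3, and sums above them at 6.53% of these and at 0 of the 8 Hedgehog genes. The sums of Gli1 and Shh in H3K27ac rested mostly or wholly on regions at the starts of other genes, and in the signal as deposited the differences were 0.033 at Shh, 0.040 at Ptch1, -0.002 at Gli1 and -0.31 at Smo.

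The balance of the marks, the log2 H3K27ac sum minus the log2 H3K27me3 sum of the samples with the same number, could be given for the 6 genes with both. Libraries of both marks with the same number and age were taken as the same cells, which was not tested. The tables were normalized apart, so the level of the balance has no absolute zero and it was not tested. It compares sums, not signal per kb. The summed H3K27ac and H3K27me3 regions took 79.0 and 10.0 kb at Dhh and 11.5 and 340 kb at Gli2. Per kb their young means were 2.27 and 2.32 at Dhh and 2.16 and 2.18 at Gli2. The distance between these genes thus came from the lengths, while at Shh signal per kb differed too (1.498 and 3.825). Among the 6 genes the balance ran in young cells from 2.92 ± 0.073 at Dhh through -0.070 ± 0.164 at Gli1, -1.71 ± 0.143 at Shh, -2.04 ± 0.099 at Smo and -2.21 ± 0.166 at Ptch1 to -4.90 ± 0.397 at Gli2 (SD, n = 3). The H3K27ac sum of Dhh came from 8 regions at the starts of neighbouring genes, among them the region inside the Dhh gene body. The start of Dhh itself had H3K27me3 alone. The H3K27ac sum of Shh came from the single region at the Rbm33 start, 47.8 kb away, with 33.8% of its length in the window. The H3K27me3 sum of Smo (young mean 291) came mostly from a region of 100.5 kb at the Tspan33 start (young mean 246), with 26.4% of its length in the window. Ihh and Hhip had H3K27me3 alone and Gli3 H3K27ac alone. At Shh the balance was -1.55, -1.80 and -1.79 in young and -1.36, -1.32 and -1.24 in old samples. All old values were higher there, by 0.41, which was the case at 13.4% of the 15661 protein-coding genes with both marks, while 5.82% were lower in the same way. At the other 5 genes the groups overlapped, with differences of -0.024 at Dhh, 0.12 at Ptch1, -0.21 at Smo, 0.13 at Gli1 and 0.23 at Gli2. With single libraries left out these ran from -0.050 to 0.018 at Dhh, 0.023 to 0.175 at Ptch1, -0.284 to -0.128 at Smo, 0.033 to 0.198 at Gli1 and 0.084 to 0.457 at Gli2, and that of Shh from 0.364 to 0.488. With a flank of 10 kb no H3K27ac region was left at Shh, so it had no balance there. The difference at Gli1 was 0.43 when only regions within 10 kb of the gene were summed, which leaves the H3K27ac region at its own start.

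**Figure D5:**
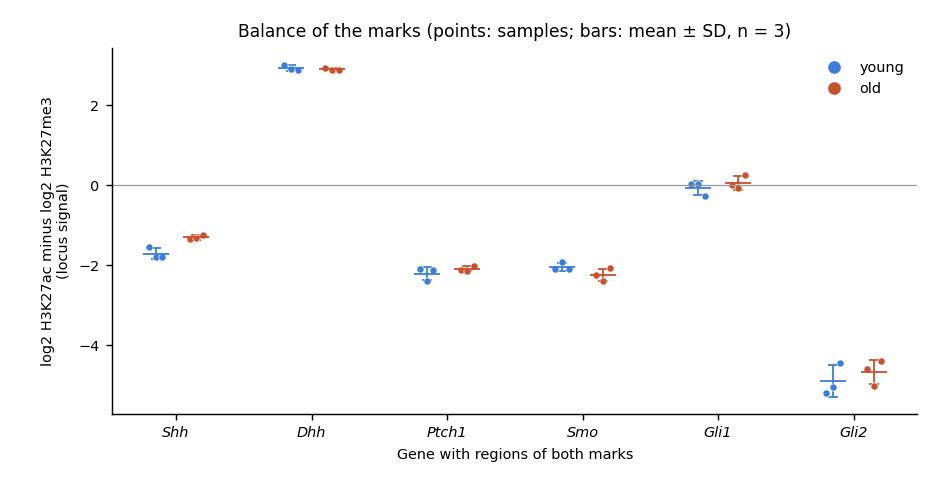
Balance of the marks at the 6 genes with regions of both, as log2 H3K27ac minus log2 H3K27me3 of the summed scaled signal, not divided by region length. Points are samples and bars the mean ± SD of 3. Dhh lies highest and Gli2 lowest, and at Shh the old points lie above the young ones.

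Of 17 other genes that handle the signal, 11 had H3K27ac alone at a start site, among them Sufu, which restrains the Gli proteins, the coreceptor Gas1, and Disp1, which releases the ligand. Scube2, Lrp2 and Gpc3 had H3K27me3 alone, the coreceptors Boc and Cdon had both and Gpr161 had neither. Of 10 genes known to respond to the pathway, Ccnd1 and Foxl1 had H3K27ac alone, Mycn, Foxf1 and Bmp4 H3K27me3 alone, and the other 5 both. None of the 20 start-site regions with H3K27ac of these lists passed the test in either direction, and 3 had an unadjusted limma p under 0.05, against shares of 0.0822% and 9.59% over all H3K27ac regions. Their medians were 0.041 for 13 regions of signal handling genes and 0.012 for 7 of responsive genes, against -0.003 over all regions. The smallest p was that of Cdon, with 85.4, 92.0 and 79.1 in young and 69.5, 61.5 and 64.6 in old libraries. All its old values were lower, with a log2 fold change of -0.39 (SE 0.108, limma adjusted p = 0.162). Ccnd1, the cyclin of early cell cycle entry, had a log2 fold change of 0.26, and Sufu one of 0.21, each with overlapping groups and a limma adjusted p of 0.507.

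For H3K27me3, 0 of 5 start-site regions of signal handling genes and 1 of 8 of responsive genes passed the test, the latter with lower signal in old cells, and 1 and 3 had an unadjusted limma p under 0.05. Over all H3K27me3 regions these shares were 0.488% and 13.9%. The medians were -0.11 and -0.18, against -0.008 over all regions and -0.017 over all regions of 20 kb or more. These start-site regions were long, with median lengths of 29 and 35.75 kb, against 10.5 kb over all. Both gene lists were chosen with earlier results of these data known, so the counts and medians of either mark are a description. H3K27me3 fell at Mycn, a proliferation factor of the Myc family. Its domain at chr12:12928001-12954500 had 90.1, 86.6 and 88.9 in young and 72.7, 57.7 and 58.3 in old libraries. All old values lay below all young ones, with means of 88.5 ± 1.79 and 62.9 ± 8.497 (SD, n = 3 each), a log2 fold change of -0.50 (SE 0.107) and a limma adjusted p of 0.0414. The call was lost with a pseudocount of 0.1 (adjusted p = 0.052), without trend and robust moderation (0.241) and without any single young library (0.172 to 0.245) or old replicate 3 (0.0636).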

How the data were processed

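CUT&RUN was performed on 12 libraries, 3 for each of 2 marks and 2 ages, and groups came from the sample labels. The authors deposited 1 table of signal per mark, with a value for each region and library. The submitters' processing notes name Bowtie2, Picard and mm10 (GRCm38). Their versions and the region caller were not given in the sources used here. The publication supplied with the series does not report these libraries. The tables call their unit RPKM, and the tests had been planned for RPKM, but 100% of values in each column were whole multiples (within 0.01 read) of the signal of 1 read over a constant 0.5 kb, so whole reads were recovered. Regions were called on old and young libraries together in steps of 500 bp. The number of sample columns not used was 0. The yeast DNA added to the reaction was not analysed here.

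Gene bodies and start sites came from GENCODE vM21, and promoters from RefSeq. The signal was scaled by the median of ratios (RLE), and log2(signal + 0.5) was fitted with limma 3.58.1 in R 4.3.3 with trend and robust moderation, two-sided, over all regions of a mark, without a filter or block. The median H3K27ac region held 12 to 30 reads and the median H3K27me3 region 28 to 79, and the floor (3 reads per library) covers counting error only. All replicates of a group differed by more than sampling noise. Locus sums were tested by exact permutation. Alternatives were the signal as deposited, TMM, other pseudocounts, a filter, limma without trend and robust moderation, edgeR 4.0.16 and DESeq2 1.42.0 on recovered reads, a replicate block, single libraries left out and other windows. Regions named were the strongest start-site region of each gene and mark, and in each mark up to 5 further regions of smallest p with separated ages. Of the other pathway genes, those that passed were named, or else the 3 of smallest p. Of the planned list of signal handling genes, 1 is not reported here. Scripts were tested on simulated data. The members, the gene lists and the markers were chosen with earlier results of these data known.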

Additional observations from a re-analysis of the deposited data

How the results depend on the processing

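No region of the 9 genes was called in H3K27ac under any alternative run, and in H3K27me3 the count was 0 in each except 2 in the signal as deposited (Shh and Hhip start sites) and 0 to 1 with single libraries left out (the 1 without old replicate 2). The H3K27ac median log2 fold change moved from 0.003 to -0.114 as deposited, -0.082 without the regions of lowest mean signal, -0.039 with a flank of 10 kb, 0.152 over regions of 20 kb or more (chosen after seeing the data, where the median of all such regions was 0.047) and -0.059 to 0.046 with single libraries left out. That of H3K27me3 moved from -0.011 to -0.134 as deposited, -0.070 with a flank of 10 kb, -0.093 with none, -0.092 at start sites only and -0.063 to 0.010 with single libraries left out. The signal as deposited turned the direction at the start sites of Ptch1 (H3K27ac, -0.108), Dhh (H3K27me3, -0.035) and Smo (H3K27me3, -0.031) and of the sums of Dhh (H3K27ac -0.100, H3K27me3 -0.077), Ptch1 (H3K27me3, -0.082), Smo (H3K27me3, -0.107) and Gli1 (H3K27ac, -0.002). The H3K27ac sum of Dhh also turned with a flank of 10 kb (-0.020), with none (-0.101) and with signal taken by the share in the window (-0.029), and that of Gli2 with a flank of 10 kb (-0.004). The balance difference moved to -0.186 at Dhh and -0.062 at Ptch1 with no flank and to 0.430 at Gli1 with no flank or 10 kb. With single libraries left out the direction was not stable at the start sites of Ptch1 (H3K27ac, -0.108 to 0.099), Gli2 (H3K27ac, -0.049 to 0.299), Smo (H3K27me3, -0.042 to 0.188) and Gli1 (H3K27me3, -0.063 to 0.061), nor for the sums of Dhh (H3K27ac -0.034 to 0.062, H3K27me3 -0.002 to 0.099), Ptch1 (H3K27me3, -0.015 to 0.103), Smo (H3K27me3, -0.030 to 0.068), Gli1 (H3K27me3, -0.065 to 0.058) and Gli2 (H3K27ac, -0.029 to 0.297). The causes were not tested.

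With the replicate block the counts of called regions were 0 and 0 and the medians 0.003 and -0.011, and no call of a named region changed. The labels do not say whether equal numbers pair young with old samples. Deviations of same-numbered young and old libraries correlated at -0.055 to 0.066 in H3K27ac and -0.079 to 0.044 in H3K27me3. Those of differently numbered libraries correlated at -0.094 to 0.077 and -0.128 to 0.137. These values cannot settle the pairing, since the 3 deviations of an age group are not independent. The short H3K27ac regions of Gli1 and Gli2 held few reads, so differences there were not detectable at this depth unless large.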
